A study of Homo sapiens with 5 samples.

Results

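HPAF1 and L3.6 are both established human pancreatic carcinoma cell lines, and the comparison described here is the level of every gene on the HPAF1 array minus its level on the L3.6 array. The series holds 5 one-colour Affymetrix expression arrays, 1 for each of HPAF1, L3.6, PANC1, SU86.86 and HPDE, and its labels call all of them pancreatic cancer lines. The lines were cultured by the supplier's protocol with no treatment named, and each has 1 sample. HPDE is known as an immortalised duct epithelial line, and L3.6 belongs to a family of metastatic variants selected by passage through nude mice. Both statements are background and not part of the labels. All 19775 genes that had a probe set annotated with a single symbol were members, which is every gene so annotated in the series. Of these, 14894 passed a filter on low values, meaning that the gene reached an intensity of 140.3 on at least 1 of the 5 arrays, and 4881 did not. A difference is given as log2(HPAF1) minus log2(L3.6) after 71.1 was added to each intensity, so a positive value is higher in HPAF1, and it understates the change of dim genes. With 1 array a line there is no error for any difference and no p-value. The origin of a line, its culture and its array cannot be told apart.

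Pancreatic duct carcinomas are known to range from a gland-forming state, in which cells keep epithelial junctions and make gastric and intestinal surface and secretory proteins, to states in which keratins of stratified epithelium or mesenchymal filaments appear. Vimentin and the stratified keratins mark the latter, while trefoil peptides, carcinoembryonic antigens and simple keratins mark the former. Carcinoma lines also differ in growth rate, which genes of DNA replication and mitosis report, and in how active their interferon system is without infection.

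HPAF1 carried the larger and the more extreme set of high genes. At least 2-fold higher in HPAF1 were 1345 genes, 9.03% of those tested, and at least 2-fold lower were 1158, or 7.77%, while 12391 lay within 2-fold. In the account that follows, higher and lower in a count mean by at least 2-fold. Each such count is to be read beside these shares of 9.03% higher and 7.77% lower over all tested genes. At 4-fold the counts were 391 (2.63%) and 236 (1.58%), which is 4.21% of genes together against 16.8% at 2-fold. At 8-fold they were 137 and 60, and at 32-fold 17 and 3. The median difference over all tested genes was -0.02. HPAF1 stood away from the rest more often than L3.6 did. For 916 of the 1345 higher genes the median of PANC1, SU86.86 and HPDE lay nearer to L3.6, and for 815 of the 1158 lower genes it also lay nearer to L3.6. HPAF1 had the highest level of the 5 lines for 923 higher genes and the lowest for 812 lower genes. L3.6 had the lowest level for 568 of the higher genes and the highest for 530 of the lower ones. Such places were not counted over all tested genes, so the same counts for the gene groups below have no share beside them. In 354 higher genes L3.6 was below the level filter, and in 303 lower genes HPAF1 was, so in those genes a signal is set against a reading below the filter.

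**Figure D1:**
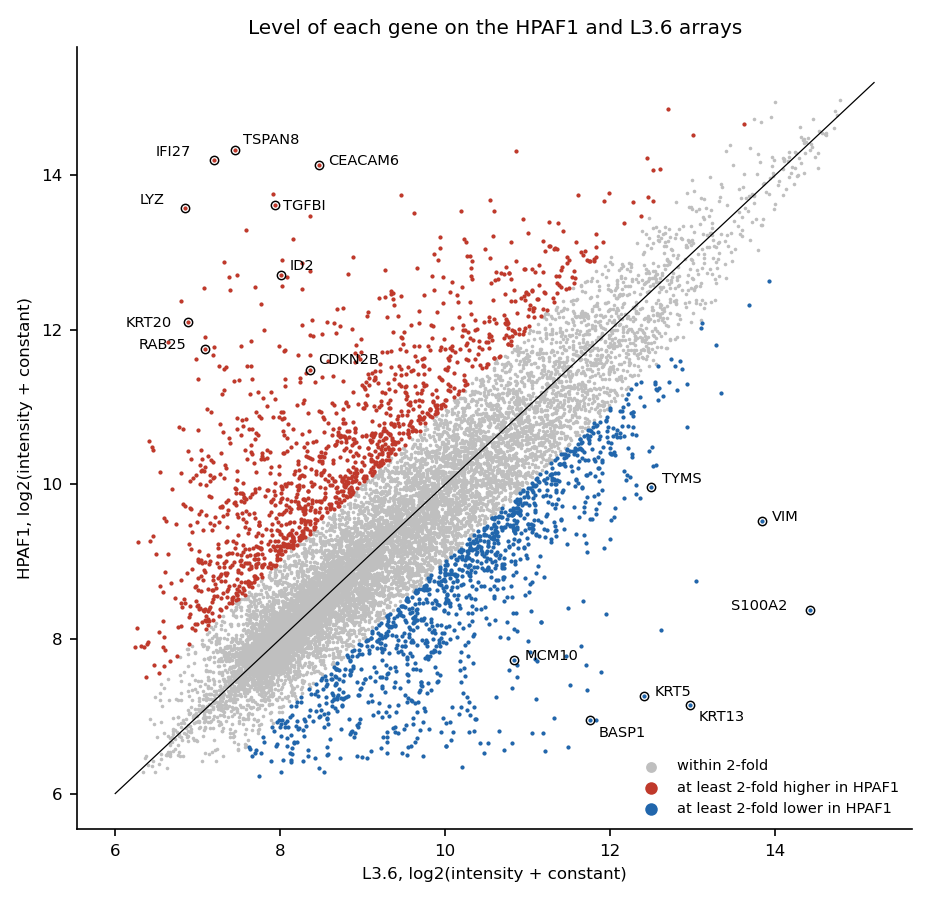
Level of each of the 14894 tested genes in L3.6 (horizontal axis) and HPAF1 (vertical axis), as log2(intensity + 71.1); the line marks equal levels, red genes are at least 2-fold higher in HPAF1 and blue genes at least 2-fold lower. More red than blue genes lie far from the line, with IFI27, TSPAN8 and LYZ farthest above it and S100A2, KRT13 and KRT5 farthest below.

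Over all genes, second probe sets agreed in direction more often than in size. Of the 717 higher genes with another probe set above the filter, 627 had all of them in the same direction, 301 had all of them at least 2-fold higher, and 267 had none at that size. Of the 578 lower genes, 506 had all in the same direction, 239 had all at least 2-fold lower and 230 had none. The mean over all probe sets of a gene often gave another size than the probe set used. Of the 270 named genes that were 2-fold apart, 69 moved by over 1.5 times under that mean and 32 were no longer 2-fold apart. Among those described here, these were MUC17 (0.77), FOXA1 (-0.97), IFIH1 (0.54), TAPBP (0.57), CCNE1 (-0.84), RB1 (-0.90), SMAD1 (-0.93), TGFBR1 (-0.44), EGFR (0.43), FZD2 (-0.81), HES1 (0.47), ITGB8 (-0.83), ITGB1 (0.98), AKR1C1 (0.89), ASNS (0.95), SCNN1A (0.77), HMGA2 (0.19), MTAP (0.73), MAOB (0.84), SUZ12 (-0.44) and EFTUD2 (-0.60). Of the same 270 genes, 18 were not 2-fold apart once cross-matching probe sets, those whose identifier marks a possible match to more than one transcript, were left out, and those values are given with each gene described.

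Several controls were close on both arrays. The 9 spike-in probe sets differed by -0.08 to 0.20, and the ratio of 3' to 5' signal was 1.02 for GAPDH on both arrays and 1.08 in HPAF1 against 1.22 in L3.6 for ACTB. Of the ribosomal protein genes, 0 of 18 were at least 2-fold higher in HPAF1 and 0 lower (median 0.01), and of the housekeeping genes 0 of 17 were higher and 1 lower (median -0.11). The housekeeping exception was VCP, at 2173 in HPAF1 and 5214 in L3.6. Several markers of pancreatic duct epithelium were far above the filter in both lines. Among these were KRT19 (20372 in HPAF1 and 10749 in L3.6), KRT18 (31646 in HPAF1 and 16306 in L3.6) and EPCAM (13296 in HPAF1 and 8733 in L3.6). The duct markers MUC1 (2872 in HPAF1 and 679.7 in L3.6) and CLDN4 (4152 in HPAF1 and 351 in L3.6) were nearer to it in L3.6. Markers of other cell types above the filter in HPAF1 and in L3.6 numbered 1 and 2 of 7 acinar, 4 and 4 of 8 endocrine, 7 and 6 of 10 fibroblast, 3 and 2 of 8 endothelial and 4 and 3 of 8 leukocyte genes on the array. Over all 19775 genes, 13189 were above the filter in HPAF1 and 13237 in L3.6, so these counts alone mark no cell type. Below the filter in both lines were the hormones INS and GCG, the acinar enzyme CPA1, the leukocyte antigen PTPRC and the endothelial genes CDH5 and VWF, while the fibroblast collagen COL1A1 was above it in both, at 1239 in HPAF1 and 1453 in L3.6. Of the retained markers of those types, 1 of 3 acinar, 1 of 3 endothelial and 1 of 4 leukocyte genes were at least 2-fold higher in HPAF1 (SPINK1, ESAM and CD14), 1 of 8 fibroblast genes was lower (COL1A2), and 0 of 5 endocrine genes was 2-fold apart. Summed over each list on the array, intensities in HPAF1 and L3.6 were 771 and 555 for acinar, 1602 and 1965 for endocrine, 3038 and 4019 for fibroblast, 1408 and 1379.9 for endothelial and 1697 and 1071 for leukocyte markers. The part of such cells in any result was not tested. In bulk RNA, fewer cells of a type and less RNA per cell cannot be told apart.

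Genes of gastric and intestinal epithelium gave some of the largest differences, and HPAF1 was usually the highest line for them. Of the structural and adhesion genes in this list, 13 of 20 were at least 2-fold higher in HPAF1 and 0 lower (median 1.74), and HPAF1 had the highest level of the 5 lines for 18 of them. Of the 21 listed, 19 were above the filter in HPAF1 and 8 in L3.6, so members could be kept through HPAF1 alone. TSPAN8, a tetraspanin of gastrointestinal epithelium, stood at 20475 in HPAF1, 104 in L3.6, 31.5 in PANC1, 260.3 in SU86.86 and 24.8 in HPDE, a difference of 6.88. HPAF1 was thus far above all the others, and L3.6 was below the filter. CDH17, the liver-intestine cadherin, stood at 5887 in HPAF1 and 63.8 in L3.6. VIL1, which bundles actin in microvilli, stood at 3479.7 in HPAF1 and 112 in L3.6. In both genes the remaining lines were near the L3.6 reading. The difference of 4.28 for VIL1 became 1.01 with a constant of 16, under which another of its probe sets had the highest mean. Among the other members, the intestinal galectin LGALS4 differed by 5.23, the keratin KRT20 by 5.21, and TM4SF4, a tetraspan protein of liver and gut, by 4.87. CEACAM6, a carcinoembryonic antigen relative that serves cell adhesion, was at 17901 in HPAF1, 285 in L3.6, 94.3 in PANC1, 4584 in SU86.86 and 123 in HPDE, so SU86.86 shared part of the HPAF1 level while L3.6 did not.

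The secreted members divided, and 4 of 15 were higher and 0 lower (median -0.08). LYZ, the bacteriolytic enzyme lysozyme, stood at 12102 in HPAF1 and 44.0 in L3.6 and at no more than 38.7 in the other lines, a difference of 6.72, and its other probe set above the filter differed by 6.70. AGR2, a disulfide isomerase needed for mucin folding, was at 11658 in HPAF1, 714 in L3.6, 11387 in PANC1, 6901 in SU86.86 and 114 in HPDE, so the low carcinoma line was L3.6. TFF2, a trefoil peptide of the stomach, was at 957 in HPAF1 and 368 in L3.6. TFF1, the trefoil peptide of gastric surface cells, differed by -0.08 and was low in both, at 316 in HPAF1 and 337 in L3.6, and AGR3 was at 202 in HPAF1 and 382 in L3.6.

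Mucins and the enzymes that build O-linked glycans were also uneven. Of the mucins, 4 of 10 were higher and 1 lower (median 0.06). The transmembrane mucins MUC20 (2896 in HPAF1 and 81.9 in L3.6), MUC1 (2872 in HPAF1 and 679.7 in L3.6), MUC13 (3592 in HPAF1 and 1401 in L3.6) and MUC17 (371 in HPAF1 and 80.2 in L3.6) were the higher ones. MUC2, the gel-forming mucin of goblet cells, was the lower one, at 237 in HPAF1 and 708 in L3.6. Of the enzymes, 6 of 18 were higher and 1 lower (median 0.44). GCNT3, which branches mucin-type glycans, was at 5109 in HPAF1 and 146 in L3.6 and at no more than 120.5 in the remaining lines. B3GALT5, a galactosyltransferase, differed by 3.23 and GALNT5, which starts O-glycans, by 2.58. GALNT14, of the same starting family, went the other way, at 329 in HPAF1 and 1515 in L3.6.

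Among the transcription factors of endoderm and duct, 9 of 21 were at least 2-fold higher in HPAF1 and 1 lower (median 0.86). MYRF, a membrane-bound factor, was at 2896 in HPAF1 and 129.6 in L3.6, and HNF4G, a nuclear receptor of intestinal epithelium, at 643 in HPAF1 and 48.7 in L3.6. EHF, an epithelial ETS factor, was at 4154 in HPAF1, 857 in L3.6, 14.6 in PANC1, 4599 in SU86.86 and 3134 in HPDE, so L3.6 was intermediate and PANC1 was at background. FOXA3 (437 in HPAF1 and 57.7 in L3.6) and FOXA2 (607 in HPAF1 and 165 in L3.6), both pioneer factors of endoderm, were higher in HPAF1, whereas FOXA1 was lower there, at 579 in HPAF1 and 2128 in L3.6. GATA6, a regulator of the gland-forming state, was at 641 in HPAF1 and 321 in L3.6, and CDX2, the intestinal homeobox factor, at 308 in HPAF1 and 120.1 in L3.6, differences of 0.86 and 0.99 that did not reach 2-fold.

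Epithelial junction genes were higher in HPAF1 or alike, and none of them was 2-fold lower. Of the adherens junction genes and their regulators, 3 of 11 were at least 2-fold higher in HPAF1 and 0 lower (median 0.43). RAB25, a small GTPase of apical recycling, was at 3385 in HPAF1, 65.3 in L3.6, 49.1 in PANC1, 2817 in SU86.86 and 2380.4 in HPDE. L3.6 and PANC1 were below the filter and the other lines were alike. CDH1, the epithelial cadherin, was at 7588 in HPAF1, 895 in L3.6, 320.3 in PANC1, 6736 in SU86.86 and 10281 in HPDE, a difference of 2.99 with its other probe set above the filter at least 2-fold apart as well. The grainyhead factor GRHL2 was at 611 in HPAF1 and 213 in L3.6. In contrast, the epithelial splicing factor ESRP1 (2274 in HPAF1 and 1672 in L3.6) and the adhesion molecule EPCAM were within 2-fold, so not every member differed by that much.

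Tight junction and apical genes were likewise on one side. In this group 10 of 19 were higher and 0 lower (median 1.04), and L3.6 had the lowest level of the 5 lines for 6. CLDN4, a claudin of tight junctions, was at 4152 in HPAF1 and 351 in L3.6. PRSS8, a membrane serine protease of polarised epithelium, was at 1124 in HPAF1 and 65.0 in L3.6, MYO5B, a motor of apical vesicle traffic, at 4039.7 in HPAF1 and 398 in L3.6, and CGN, the tight junction plaque protein cingulin, at 851 in HPAF1 and 69.8 in L3.6. The difference for MYO5B was 3.13, but 0.66 without cross-matching probe sets. Of the desmosome genes 5 of 12 were higher and 0 lower (median 0.72). The desmosomal cadherins DSC2 (2621 in HPAF1 and 497 in L3.6) and DSG2 (6797 in HPAF1 and 1494 in L3.6) were among the higher members, with every other probe set above the filter at least 2-fold apart too.

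Keratins parted by list in direction, with the size carried by a few genes. All 6 retained keratins listed as simple had a positive difference, 3 of them of at least 2-fold. These 3 were KRT23, KRT80 and KRT8, while KRT7 (0.46), KRT18 (0.95) and KRT19 (0.92) were within 2-fold. Of 11 stratified keratins listed, 7 were on the array and retained, and all 7 had a negative difference, 3 of at least 2-fold. KRT13, KRT5, KRT15 and KRT10 were above the filter in L3.6, and the other members were below it in both lines. KRT23 was at 6919.9 in HPAF1 and 544 in L3.6, KRT80 at 1173 in HPAF1 and 134 in L3.6 and KRT8, the partner of KRT18 in simple epithelia, at 17055 in HPAF1 and 5792 in L3.6. KRT13, a keratin of suprabasal cells in mucosal linings, was at 71.0 in HPAF1, 7952 in L3.6, 70.6 in PANC1, 143 in SU86.86 and 146 in HPDE, so only L3.6 was far above the filter. KRT5, a keratin of basal cells, was at 81.8 in HPAF1, 5370.5 in L3.6, 86.2 in PANC1, 749.6 in SU86.86 and 14448 in HPDE, and KRT15, another basal keratin, at 377 in HPAF1 and 1588 in L3.6. HPDE exceeded L3.6 for KRT5, and HPAF1 was below the filter for both KRT13 and KRT5.

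Other squamous genes did not all follow the keratins, since 4 of 22 were higher and 3 lower (median 0.09). S100A2, a calcium-binding protein of basal cells, was at 261 in HPAF1, 21909 in L3.6, 664 in PANC1, 3104 in SU86.86 and 7276 in HPDE, the lowest difference of all genes at -6.05. CSTA, a protease inhibitor of the cornified envelope, was at 57.8 in HPAF1 and 1193 in L3.6 and FGFBP1, which releases fibroblast growth factors from matrix, at 1363 in HPAF1 and 5732 in L3.6. The connexin GJB2 (947 in HPAF1 and 65.7 in L3.6) and the cornified envelope precursor SPRR3 (1117 in HPAF1 and 91.8 in L3.6) were higher in HPAF1. For SPRR3 the difference was 2.87, but 0.44 on its other probe set above the filter.

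Mesenchymal genes were mostly lower in HPAF1 where the lines differed. Of the list, 3 of 37 were at least 2-fold higher in HPAF1 and 12 lower (median -0.23), and HPAF1 had the lowest level of the 5 lines for 13 of the 37. VIM, the intermediate filament vimentin, was at 663 in HPAF1, 14591 in L3.6, 27257 in PANC1, 6637 in SU86.86 and 188 in HPDE, a difference of -4.32, so only HPDE lay below HPAF1. BASP1, a membrane-bound growth cone protein, was at 52.1 in HPAF1 and 3383 in L3.6, and GJA1, the gap junction protein a connexin, at 23.1 in HPAF1 and 1614 in L3.6. PFN2, an actin-binding profilin, was at 359 in HPAF1 and 8390.3 in L3.6. In all of BASP1, GJA1 and PFN2, every other line was with L3.6 and HPAF1 was the one apart on the probe set used. For BASP1 the difference was -4.81 there, but -0.13 on its other probe set above the filter, so its size is uncertain. AXL, a receptor kinase of mesenchymal cells, was at 759.8 in HPAF1 and 4214 in L3.6 (-2.37, but -0.42 on its other probe set above the filter). The secreted protein IGFBP7 was at 132 in HPAF1 and 3268 in L3.6. Of the factors that drive this state 0 of 6 were higher and 1 lower (median -0.32). SNAI2 was well above the filter in both lines and within 2-fold, at 1156 in HPAF1 and 1899 in L3.6. TWIST1 was at 25.2 in HPAF1 and 213 in L3.6, above the filter in L3.6 alone, while ZEB1 (115 in HPAF1 and 184 in L3.6) and the cadherin CDH2 (66.4 in HPAF1 and 104 in L3.6) were near background in both lines. FN1, fibronectin, was low in both as well, at 229.7 in HPAF1 and 145 in L3.6.

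**Figure D2:**
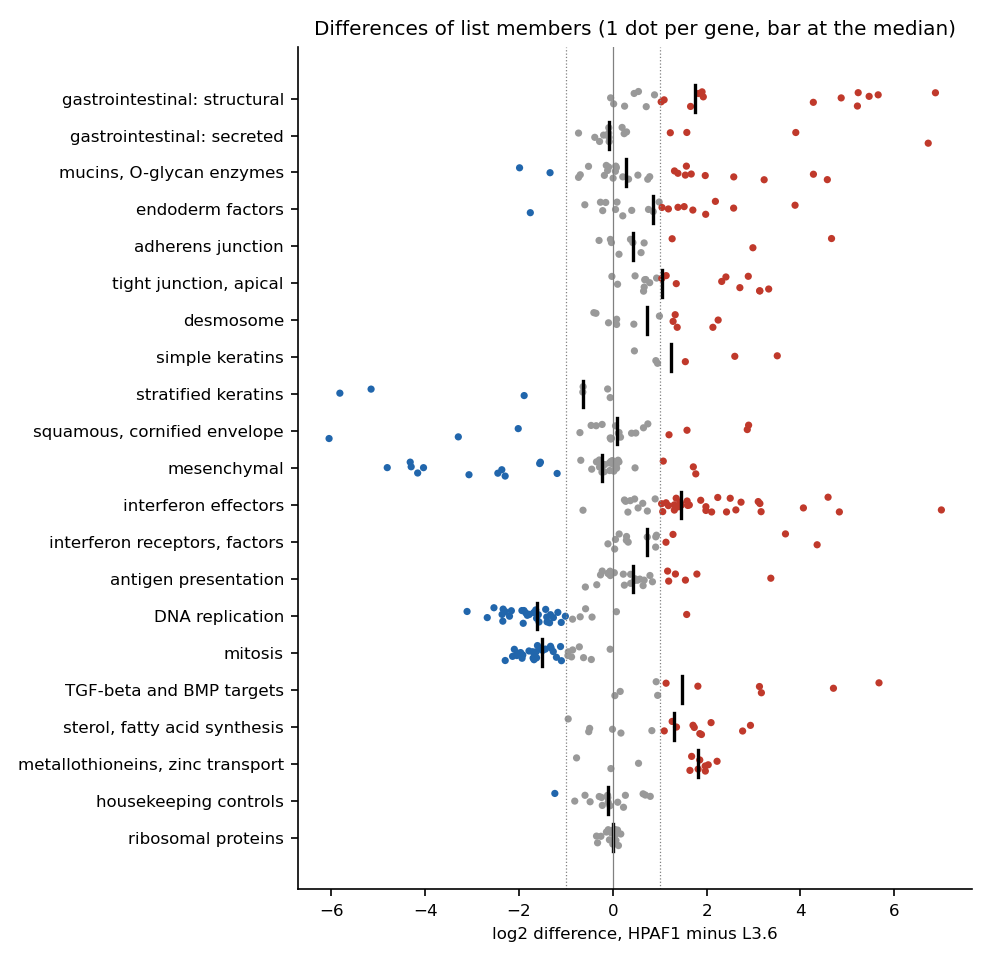
Log2 difference, HPAF1 minus L3.6, of every retained member of 21 gene groups, 1 dot per gene, with a bar at the group's median; red dots are at least 2-fold higher in HPAF1 and blue dots at least 2-fold lower. Interferon effectors and the gastrointestinal surface genes lie to the right, DNA replication and mitosis to the left, and ribosomal proteins within 2-fold.

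Interferon-stimulated effectors had the largest share of higher members of all groups counted. Such a ranking depends on the lists, which were chosen with earlier results of these data known. Of the effectors, 30 of 40 were at least 2-fold higher in HPAF1 and 0 lower (median 1.45), and 39 of 40 had a positive difference. IFI27, a mitochondrial membrane protein induced by interferon, was at 18718 in HPAF1, 75.1 in L3.6, 70.2 in PANC1, 3766 in SU86.86 and 14846 in HPDE, the largest difference of all genes at 7.01. L3.6 and PANC1 were below the filter, and SU86.86 lay between them and the high lines. BST2, which tethers budding virions, was at 3784 in HPAF1, 64.4 in L3.6, 35.9 in PANC1, 43.6 in SU86.86 and 5323 in HPDE, and only HPAF1 and HPDE were above the filter. MX1, an antiviral GTPase, was at 3451 in HPAF1, 75.2 in L3.6, 49.3 in PANC1, 273 in SU86.86 and 9178 in HPDE, and the ubiquitin-like modifier ISG15 at 7829 in HPAF1, 401 in L3.6, 704 in PANC1, 3779 in SU86.86 and 22376 in HPDE. In both genes HPDE was higher than HPAF1 and L3.6 was low. OAS1, which makes the activator of RNase L, was at 4737 in HPAF1 and 466 in L3.6, and IFITM1, a membrane protein that blocks virus entry, at 7592 in HPAF1 and 2832 in L3.6.

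The factors and sensors of the pathway followed in part. Of the receptors and factors, 4 of 15 were higher and 0 lower (median 0.73). IRF7, the inducible regulator of interferon genes, was at 2560.2 in HPAF1, 57.4 in L3.6, 830.1 in PANC1, 1148 in SU86.86 and 5963 in HPDE, and IRF9, the DNA-binding subunit of the type I interferon complex, at 3308 in HPAF1, 192 in L3.6, 235 in PANC1, 321 in SU86.86 and 4172 in HPDE. The receptor subunits IFNGR2 (3219 in HPAF1 and 1280.5 in L3.6) and IL10RB (619 in HPAF1 and 244 in L3.6) were the remaining members at least 2-fold higher. Of the sensors 3 of 10 were higher and 0 lower (median 0.47). These were RIGI (816 in HPAF1 and 94.3 in L3.6), DHX58 (493 in HPAF1 and 58.6 in L3.6) and IFIH1 (784 in HPAF1 and 319.9 in L3.6), the cytosolic sensors of double-stranded RNA, whereas the DNA sensor CGAS was at 317 in HPAF1 and 208 in L3.6. For RIGI, 1 of its 2 other probe sets above the filter went the opposite way, and its difference of 2.42 was 1.01 without cross-matching probe sets. The other IFIH1 probe set above the filter differed by 0.37.

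Interferon effectors are known to be switched on through a short element in their promoters, the interferon-stimulated response element. Its core, a pair of GAAA words with any 2 bases between them, was searched on both strands in RefSeq promoters (GRCh38.p14, 250 bases before to 50 after each start, several starts for some genes). It was in 24 of the 32 effectors that had a promoter in that table, or 75%, against 4.38% of all genes and 3.57% of all promoters in the table. Among tested genes with a promoter there the share was 3.84%. The share was 6.15% among genes at least 2-fold higher in HPAF1, 3.13% among those lower and 3.65% among those within 2-fold. Of the 66 higher genes with the core, 18 were the listed effectors themselves. The 24 effectors with the core had a median difference of 1.78 and the 8 without it 1.40. The promoters of the 4 effectors with the largest differences that hold the core are shown, with each match in capitals, because they head the group. In BST2 and ISG15 a pair of matches overlap, and in MX1 the match begins at base 12 after the start. A match is a description of the letters and not of binding.
IFI27, chr14:94110486-94110785, plus strand: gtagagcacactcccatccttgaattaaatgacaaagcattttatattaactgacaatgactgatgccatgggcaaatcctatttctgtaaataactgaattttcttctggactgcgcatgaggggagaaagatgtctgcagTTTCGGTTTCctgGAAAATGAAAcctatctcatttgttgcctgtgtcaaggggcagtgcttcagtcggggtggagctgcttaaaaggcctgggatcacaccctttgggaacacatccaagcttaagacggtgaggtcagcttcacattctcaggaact
BST2, chr19:17405581-17405880, minus strand: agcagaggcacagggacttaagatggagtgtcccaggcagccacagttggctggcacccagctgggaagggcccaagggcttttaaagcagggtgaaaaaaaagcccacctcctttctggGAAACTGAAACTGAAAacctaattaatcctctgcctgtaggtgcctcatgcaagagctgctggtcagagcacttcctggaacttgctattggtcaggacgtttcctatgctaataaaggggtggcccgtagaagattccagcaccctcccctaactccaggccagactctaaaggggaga
MX1, chr21:41420308-41420607, plus strand: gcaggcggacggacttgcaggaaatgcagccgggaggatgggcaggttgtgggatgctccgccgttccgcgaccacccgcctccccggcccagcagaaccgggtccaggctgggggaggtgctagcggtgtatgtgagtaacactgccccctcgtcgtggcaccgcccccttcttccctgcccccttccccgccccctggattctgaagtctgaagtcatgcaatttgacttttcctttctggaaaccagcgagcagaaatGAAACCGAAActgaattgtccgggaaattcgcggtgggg
ISG15, chr1:1013247-1013546, plus strand: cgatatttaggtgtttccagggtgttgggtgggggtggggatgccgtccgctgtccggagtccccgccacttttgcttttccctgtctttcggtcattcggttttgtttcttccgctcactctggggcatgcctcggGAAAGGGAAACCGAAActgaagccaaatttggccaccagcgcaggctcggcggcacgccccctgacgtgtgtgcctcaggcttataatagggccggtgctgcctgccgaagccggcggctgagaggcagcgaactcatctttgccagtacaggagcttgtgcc

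Antigen presentation differed less than the effectors. Of the class I genes, 4 of 18 were at least 2-fold higher in HPAF1 and 0 lower (median 0.55), and of the class II genes 2 of 10 were higher and 0 lower (median -0.06). ERAP2, which trims peptides for class I, was at 1566 in HPAF1, 87.3 in L3.6, 131 in PANC1, 778 in SU86.86 and 621 in HPDE, with all 3 other probe sets above the filter at least 2-fold apart, and L3.6 was the one line below the filter beside PANC1. The immunoproteasome subunit PSMB9 was at 1465 in HPAF1 and 372 in L3.6 and the loading factor TAPBP at 2234 in HPAF1 and 842 in L3.6. The 2 other TAPBP probe sets above the filter differed by 0.11 and 0.28. HLA-B was at 6647 in HPAF1 and 5094 in L3.6 and B2M, the common light chain, at 20772 in HPAF1 and 13250.2 in L3.6, within 2-fold. HLA probe sets can pick up related genes, so the HLA levels are uncertain. In class II the chaperone-like HLA-DMA (379.6 in HPAF1 and 83.0 in L3.6) and HLA-DMB (505 in HPAF1 and 185 in L3.6) were higher in HPAF1, while CD74 was at 415 in HPAF1 and 435 in L3.6 and HLA-DRA at 129 in HPAF1 and 182 in L3.6.

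Replication and mitotic genes had the largest shares of lower members of all groups counted, in lists chosen with earlier results of these data known. Of the replication genes, 1 of 35 were at least 2-fold higher in HPAF1 and 29 lower (median -1.63). MCM10, which helps activate the replicative helicase, was at 141 in HPAF1, 1753 in L3.6, 1164 in PANC1, 862 in SU86.86 and 71.2 in HPDE, a difference of -3.11. TYMS, which makes thymidylate, was at 928 in HPAF1, 5714 in L3.6, 12188 in PANC1, 4963 in SU86.86 and 341 in HPDE. Of the other 2 TYMS probe sets above the filter, 1 differed by -2.40 and 1 went the opposite way, by 0.34. On the probe sets used, the lines parted in the same way for MCM10 and TYMS, with HPAF1 and HPDE low and the others high. The origin and helicase genes CDC45 (258 in HPAF1 and 2036 in L3.6), ORC1 (102 in HPAF1 and 817 in L3.6) and MCM2 (1132 in HPAF1 and 5824 in L3.6), the flap nuclease FEN1 (835 in HPAF1 and 4532 in L3.6) and the ribonucleotide reductase subunit RRM2 (2245 in HPAF1 and 10298 in L3.6) were lower in HPAF1 too. PCNA, the sliding clamp, was within 2-fold, at 3593 in HPAF1 and 5407 in L3.6. HPAF1 had the lowest level of the 5 lines for 21 of these genes and L3.6 the highest for 19. RFC5, a clamp loader subunit, was the only member at least 2-fold higher, chosen here after its value was seen, at 2129.5 in HPAF1 and 667 in L3.6. Its other 2 probe sets above the filter went the opposite way, by -2.04 and -1.81, so its direction is uncertain.

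Of the mitotic genes, 0 of 32 were higher and 24 lower (median -1.51), and 32 of 32 had a negative difference. KIF23, a kinesin of cytokinesis, was at 192 in HPAF1 and 1218 in L3.6, the topoisomerase TOP2A at 992 in HPAF1 and 4604 in L3.6, BIRC5, a subunit of the chromosomal passenger complex, at 798 in HPAF1 and 3654 in L3.6, and the kinase CDK1, which drives entry into mitosis, at 1269.9 in HPAF1 and 4066 in L3.6. The 2 other TOP2A probe sets above the filter differed by -1.96 and -0.15. The proliferation antigen MKI67 was at 606 in HPAF1 and 1761 in L3.6, with its 3 other probe sets above the filter at least 2-fold apart. HPAF1 was the lowest of the 5 lines for 2 mitotic genes only.

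Replication genes are known targets of the E2F factors. The E2F sites TTTGGCGC and TTTCCCGC, searched on both strands of the same promoters, were in 15 of 31 replication genes, or 48.4%, against 2.75% of all genes and 2.27% of all promoters in the table. Among tested genes with a promoter there the share was 4.17%. The sites were in 8.76% of the genes at least 2-fold lower in HPAF1, 3.17% of those higher and 3.84% of those within 2-fold. Of the 84 lower genes with a site, 13 were the listed replication genes themselves. The 15 genes with a site had a median difference of -1.59 and the 16 without one -1.84. E2F1 itself was at 346 in HPAF1 and 642 in L3.6. The promoters of the 2 replication genes with a site and the lowest differences, TYMS and the helicase subunit MCM3 (-2.34), are shown with the site in capitals, for comparison with those of the interferon effectors.
TYMS, chr18:657403-657702, plus strand: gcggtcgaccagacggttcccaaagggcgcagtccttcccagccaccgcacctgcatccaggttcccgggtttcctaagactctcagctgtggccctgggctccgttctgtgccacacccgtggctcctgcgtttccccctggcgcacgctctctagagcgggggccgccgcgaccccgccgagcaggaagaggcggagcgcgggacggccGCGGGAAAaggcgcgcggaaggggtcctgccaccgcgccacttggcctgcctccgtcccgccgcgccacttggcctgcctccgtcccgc
MCM3, chr6:52284693-52284992, minus strand: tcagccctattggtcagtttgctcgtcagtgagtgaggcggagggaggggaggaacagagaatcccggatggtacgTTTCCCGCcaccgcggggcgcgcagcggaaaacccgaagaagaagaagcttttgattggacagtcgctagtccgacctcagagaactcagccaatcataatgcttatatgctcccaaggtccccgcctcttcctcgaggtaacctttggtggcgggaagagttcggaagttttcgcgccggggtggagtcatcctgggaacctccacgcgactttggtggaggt

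Among cyclins and cell cycle inhibitors 2 of 18 were higher and 5 lower (median -0.35). The inhibitor CDKN2B, which blocks the cyclin D kinases, was at 2789 in HPAF1, 257 in L3.6, 21.5 in PANC1, 24.9 in SU86.86 and 729 in HPDE, a difference of 3.12. Its neighbour CDKN2A was above the filter in both lines, at 11086 in HPAF1, 5597 in L3.6, 179 in PANC1, 189 in SU86.86 and 9148 in HPDE. PANC1 and SU86.86 were below the filter for CDKN2B and just above it for CDKN2A. CDKN1A, a kinase inhibitor induced by p53, was at 3932 in HPAF1, 589 in L3.6, 1299 in PANC1, 3030.2 in SU86.86 and 7667 in HPDE, lowest in L3.6. Lower in HPAF1 were the cyclins CCNE1 (253 in HPAF1 and 976 in L3.6) and CCNE2 (177 in HPAF1 and 931 in L3.6), which start S phase, and RB1, which restrains E2F (622 in HPAF1 and 1745 in L3.6). The other RB1 probe set above the filter differed by -0.41. Cyclin CCND1 was alike, at 3083 in HPAF1 and 3629 in L3.6.

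**Figure D3:**
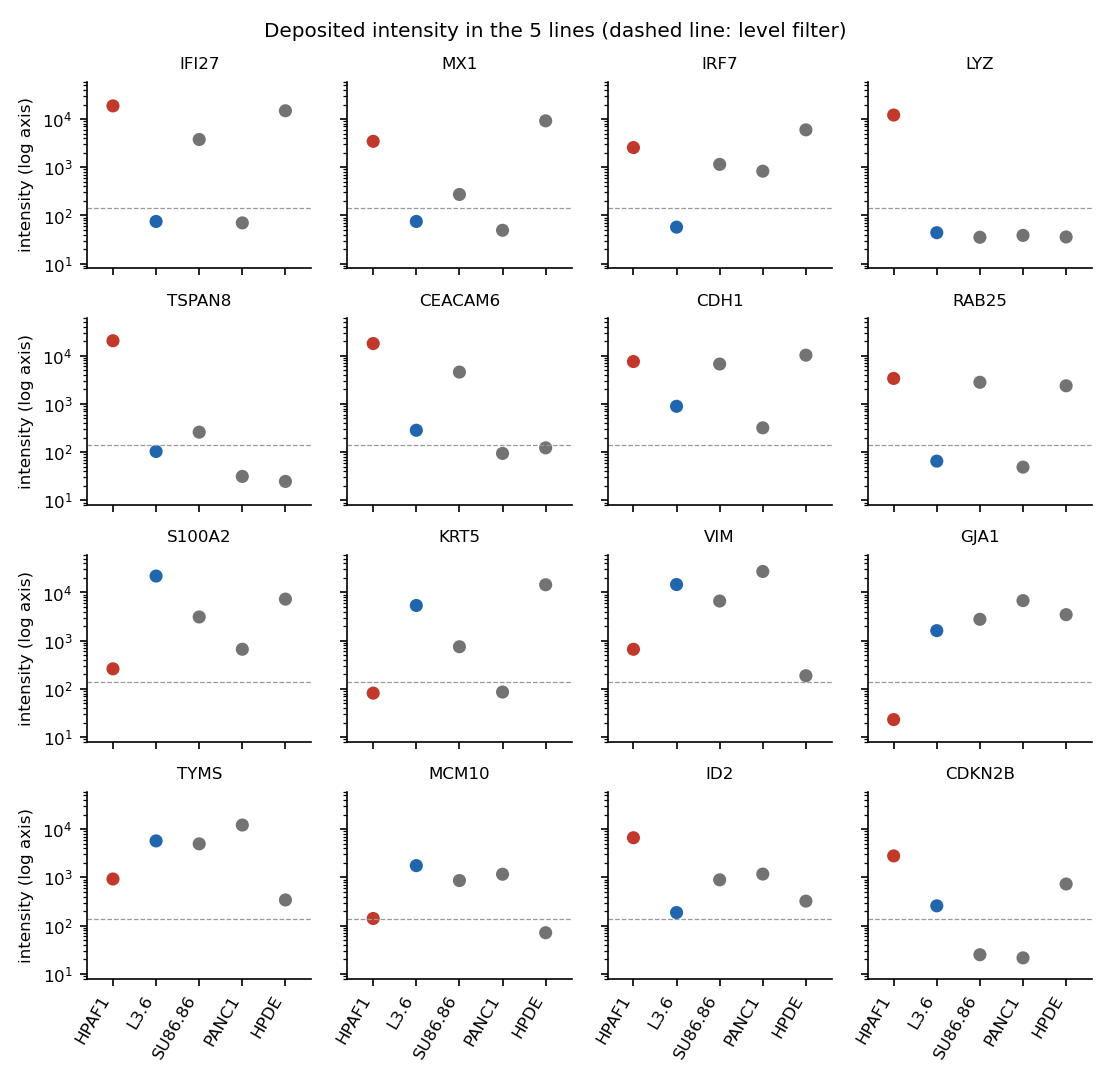
Deposited intensity (log axis) of 16 genes in the 5 lines, 1 array each, with HPAF1 in red, L3.6 in blue, the remaining lines in grey and a dashed line at the level filter of 140.3. LYZ and TSPAN8 are high in HPAF1 alone, RAB25 is low in L3.6 and PANC1, GJA1 is low in HPAF1 alone, and HPAF1 lies with HPDE for IFI27 and for TYMS.

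Of the p53 targets, 3 of 25 were at least 2-fold higher in HPAF1 and 2 lower (median 0.16), so the list as a whole was near the median of all genes. Its counts were also near the shares over all tested genes, 9.03% higher and 7.77% lower. PMAIP1, a death inducer of the BCL2 family, was at 4278 in HPAF1 and 330.5 in L3.6 and the stress cytokine GDF15 at 5572 in HPAF1 and 578 in L3.6, while the death receptor FAS (170.2 in HPAF1 and 643 in L3.6) and the DNA repair gene DDB2 (291 in HPAF1 and 870.3 in L3.6) were lower in HPAF1. For GDF15 the difference was 3.12, but 0.50 on its other probe set above the filter. MDM2, which degrades p53, was at 795 in HPAF1 and 1267 in L3.6. Among neighbours of loci that pancreatic carcinomas often lose, on chromosomes 9 and 18, 3 of 10 were higher and 0 lower (median 0.25). MTAP, a methionine salvage enzyme beside CDKN2A, was at 1141 in HPAF1 and 509.9 in L3.6, a difference of 1.06 or 1.84 without cross-matching probe sets, and SMAD4, the shared mediator of TGF-beta and BMP signals, at 589 in HPAF1 and 645 in L3.6, so neither line was at background for either gene.

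Targets of TGF-beta and BMP signals were higher in HPAF1 where the lines differed, and 6 of 10 were higher and 0 lower (median 1.47). TGFBI, a matrix protein induced by TGF-beta, was at 12425 in HPAF1, 173 in L3.6, 1052 in PANC1, 5906 in SU86.86 and 4863 in HPDE, a difference of 5.68, and L3.6 was the low line. The inhibitors of differentiation ID2 (6649 in HPAF1 and 187 in L3.6) and ID3 (4566 in HPAF1 and 459.9 in L3.6), which respond to BMP, and the matricellular protein CCN2 (2129.7 in HPAF1 and 174 in L3.6) were higher as well. ID1 was at 15688 in HPAF1 and 8052 in L3.6, just within 2-fold. LTBP3, which holds TGF-beta in the matrix, differed by 1.81, but by 0.03 without cross-matching probe sets.

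Ligands, inhibitors and receptors of the pathway differed in both directions. Of the ligands and inhibitors, 5 of 16 were higher and 2 lower (median 0.04). BMP4 was at 2146 in HPAF1, 151 in L3.6, 106 in PANC1, 175 in SU86.86 and 123 in HPDE, above the filter by a wide margin in HPAF1 alone, and BMP2 was at 829 in HPAF1 and 169 in L3.6. The extracellular inhibitors FST (132 in HPAF1 and 1809 in L3.6) and NOG (73.0 in HPAF1 and 515 in L3.6), which bind activins and BMPs, were lower in HPAF1. TGFB1 was alike, at 679.7 in HPAF1 and 665 in L3.6. Of the receptors and SMAD proteins 3 of 15 were higher and 2 lower (median 0.28). TGFBR2 was at 8232 in HPAF1 and 2299 in L3.6 and the feedback inhibitor SMAD7 at 699 in HPAF1 and 87.6 in L3.6, against TGFBR1 at 576 in HPAF1 and 1299 in L3.6 (-0.47 without cross-matching probe sets) and SMAD1 at 195 in HPAF1 and 522 in L3.6.

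Growth factor receptors included one wide difference. Of the EGF family ligands, 1 of 6 were higher and 0 lower (median 0.10), and of the receptor kinases 5 of 23 were higher and 2 lower (median 0.27). ERBB3, a receptor that signals through its partners, was at 3788 in HPAF1, 267 in L3.6, 107 in PANC1, 333 in SU86.86 and 873 in HPDE. Its difference was 3.51, and its 2 other probe sets above the filter differed by 0.61 and 3.25. EGFR was at 3989 in HPAF1 and 1911 in L3.6, but of its 6 other probe sets above the filter 4 went the same way and 0 by 2-fold. Its difference of 1.03 was 0.84 without cross-matching probe sets and 0.92 after quantile normalization. MET, the receptor of hepatocyte growth factor, was at 5733 in HPAF1 and 2056 in L3.6, with all 3 other probe sets above the filter at least 2-fold apart. EPHB4, a receptor of ephrins, was lower in HPAF1, at 221 in HPAF1 and 801 in L3.6 (-1.58, but -0.65 on its other probe set above the filter). The ligand EREG was at 4561 in HPAF1 and 2218 in L3.6, a difference of 1.02 that was 0.91 after quantile normalization, and TGFA at 2233 in HPAF1 and 2833 in L3.6.

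WNT and Notch genes differed in both directions. Of the WNT genes 4 of 25 were higher and 1 lower (median -0.04), and of the Notch genes 2 of 17 were higher and 1 lower (median 0.13). Over all tested genes 9.03% were higher and 7.77% lower, and the Notch counts were near those shares. FZD5, a WNT receptor, was at 2423 in HPAF1 and 439 in L3.6, a difference of 2.29 that was 0.36 without cross-matching probe sets. The ligase RNF43, which removes such receptors, was at 1223 in HPAF1 and 259 in L3.6, while the receptor FZD2 was at 91.6 in HPAF1 and 429.8 in L3.6. For FZD2 the difference was -1.62, but -0.01 on its other probe set above the filter. The WNT antagonist DKK1 was alike, at 7716 in HPAF1 and 7133 in L3.6, and AXIN2, a readout of WNT activity, too, at 314 in HPAF1 and 324 in L3.6. Of the Notch ligands, JAG1 was at 4716 in HPAF1 and 883 in L3.6 and DLL1 at 19.3 in HPAF1 and 670.4 in L3.6. JAG1 was thus above the filter in both lines and DLL1 in L3.6 alone. The Notch target HES1 was at 1195 in HPAF1 and 486 in L3.6, a difference of 1.19 that was -0.01 without cross-matching probe sets.

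Of the chemokines, 3 of 13 were higher and 1 lower (median 0.09), and of the cytokines 4 of 18 were higher and 1 lower (median 0.36). CCL20, which attracts lymphocytes and dendritic cells, was at 1665 in HPAF1, 116 in L3.6, 80.3 in PANC1, 1873 in SU86.86 and 175 in HPDE, and the membrane-bound chemokine CXCL16 at 1437 in HPAF1 and 276 in L3.6. The neutrophil attractants CXCL8 (1413 in HPAF1 and 1231 in L3.6), CXCL1 (277 in HPAF1 and 256 in L3.6) and CXCL5 (2297 in HPAF1 and 3162 in L3.6) were within 2-fold. TNFSF15, a cytokine of the TNF family, was at 2876 in HPAF1 and 91.4 in L3.6, IL32 at 1325 in HPAF1 and 119 in L3.6 and IL18 at 2699 in HPAF1 and 484 in L3.6. VEGFC, a growth factor for lymphatic vessels, was at 117 in HPAF1 and 886 in L3.6, the one cytokine at least 2-fold lower in HPAF1.

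The listed secreted and membrane proteases were mostly higher in HPAF1 where the lines differed. Of them 10 of 25 were higher and 1 lower (median 0.16). MMP7, a matrix metalloproteinase of glandular epithelium, was at 9988 in HPAF1, 121 in L3.6, 115 in PANC1, 991 in SU86.86 and 108 in HPDE, a difference of 5.71. The kallikreins KLK10 (11306 in HPAF1 and 258 in L3.6) and KLK6 (7385 in HPAF1 and 237 in L3.6) and the membrane protease TMPRSS4 (9144 in HPAF1 and 215 in L3.6) were also far higher. For KLK10 the difference of 5.11 became 0.97 without cross-matching probe sets. PLAT, the tissue plasminogen activator, was the lower one in the list, at 67.6 in HPAF1 and 1010.4 in L3.6. The secreted protease HTRA1, which was not in the list, was lower too, with a difference of -4.11. Of the inhibitors 8 of 18 were higher and 2 lower (median 0.75). TIMP2 was at 4402 in HPAF1 and 263 in L3.6 and TFPI, which blocks the start of coagulation, at 2112 in HPAF1 and 241 in L3.6, each with every other probe set above the filter at least 2-fold apart. Their relatives went the other way, with TFPI2 at 26.4 in HPAF1 and 2809 in L3.6 (a difference of -4.88, or -2.97 without cross-matching probe sets) and TIMP3 at 124 in HPAF1 and 433 in L3.6.

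Matrix adhesion genes lay within 2-fold in 13 of 19 cases, against 83.2% of all genes. Of the integrins, 4 of 11 were higher and 1 lower (median 0.16), and of the laminins 1 of 8 were higher and 0 lower (median 0.15). The shares over all tested genes were 9.03% higher and 7.77% lower. ITGB1, the common beta subunit, was at 17292 in HPAF1 and 6179.9 in L3.6 with all 3 other probe sets above the filter at least 2-fold apart, ITGA2 at 4279 in HPAF1 and 1663 in L3.6, and ITGB8, which activates TGF-beta, at 187 in HPAF1 and 919.7 in L3.6. For ITGB8, 1 of 2 other probe sets above the filter went the opposite way, by 0.07. The laminin chain LAMB3 was alike, at 1797 in HPAF1 and 1827 in L3.6. Of the S100 genes 1 of 13 were higher and 1 lower (median 0.13), near the shares over all tested genes. S100P was the higher, at 13602 in HPAF1 and 3049 in L3.6, and S100A2 the lower. Of the annexins 5 of 11 were higher and 2 lower (median 0.60). ANXA10, a gastric annexin, was at 7586 in HPAF1, 189 in L3.6, 97.5 in PANC1, 158 in SU86.86 and 104 in HPDE and ANXA4 at 13626 in HPAF1 and 638 in L3.6, against ANXA5 at 1059.7 in HPAF1 and 3762 in L3.6.

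Detoxifying and retinoid genes were more often higher than lower in HPAF1. Of the aldehyde dehydrogenases, 3 of 15 were higher and 1 lower (median 0.27), with ALDH1A1, which makes retinoic acid, at 1213 in HPAF1, 49.4 in L3.6, 52.6 in PANC1, 58.4 in SU86.86 and 45.3 in HPDE and ALDH2, which oxidises acetaldehyde, at 8443 in HPAF1 and 913 in L3.6. ALDH1A3 was high in both, at 9075 in HPAF1 and 6056 in L3.6. Of the retinoid genes 6 of 14 were higher and 1 lower (median 0.45), including PLAAT4, a retinoid-induced growth inhibitor (2824 in HPAF1 and 88.0 in L3.6), DHRS9, a retinol dehydrogenase (4916 in HPAF1 and 364 in L3.6), and the retinoic acid carrier CRABP2 (1781 in HPAF1 and 192 in L3.6). Of the genes controlled by the oxidative stress factor NRF2 9 of 22 were higher and 2 lower (median 0.73). AKR1B10 was at 2409 in HPAF1 and 196 in L3.6, the glutathione peroxidase GPX2 at 7743 in HPAF1 and 1425 in L3.6 and NQO1 at 8935 in HPAF1 and 3009 in L3.6, the last with both other probe sets above the filter at least 2-fold apart. AKR1C1, AKR1C2 and AKR1C3 are near-identical and their probe sets may share targets, so their differences of 1.85, 1.93 and 3.26 are uncertain. That of AKR1C1 was 0.26 without cross-matching probe sets. ABCC3, a drug and bile salt exporter, differed by 3.57, but by 0.19 without cross-matching probe sets.

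Sterol synthesis genes were higher in HPAF1 as a group. Of the sterol and fatty acid genes, 10 of 16 were at least 2-fold higher in HPAF1 and 0 lower (median 1.31). INSIG1, a sterol-regulated protein of the endoplasmic reticulum, was at 1897 in HPAF1, 186 in L3.6, 629 in PANC1, 147 in SU86.86 and 1092 in HPDE, so L3.6 and SU86.86 were the low lines. DHCR7, the last enzyme of cholesterol synthesis, was at 3118 in HPAF1 and 789 in L3.6. LSS, which closes the sterol rings, was at 2451 in HPAF1 and 626 in L3.6, and HMGCS1, an early enzyme of the pathway, at 2458 in HPAF1 and 981 in L3.6. The fatty acid synthase FASN was at 725 in HPAF1 and 1065 in L3.6. FADS2 differed by 2.77 on the probe set used and by -0.04 without cross-matching probe sets. Of the genes of glycolysis and the response to low oxygen 3 of 28 were higher and 1 lower (median -0.31), against 9.03% and 7.77% of all tested genes. CA12, a carbonic anhydrase, was at 2591 in HPAF1 and 231 in L3.6 and BNIP3, a mitophagy receptor, at 26.9 in HPAF1, 961 in L3.6, 1979 in PANC1, 660.0 in SU86.86 and 1930.5 in HPDE, so BNIP3 was below the filter in HPAF1 alone. LDHA, lactate dehydrogenase, was alike, at 13558 in HPAF1 and 13137 in L3.6.

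Of the serine synthesis and amino acid genes 5 of 17 were higher and 1 lower (median 0.46). TRIB3 (6391 in HPAF1 and 1208 in L3.6), DDIT3 (2678 in HPAF1 and 663 in L3.6), CHAC1 (801 in HPAF1 and 165 in L3.6) and the asparagine synthetase ASNS (6385 in HPAF1 and 1525 in L3.6), all known targets of the stress factor ATF4, were higher in HPAF1, and PHGDH, the first enzyme of serine synthesis, was lower, at 474 in HPAF1 and 1942 in L3.6. Of the genes that handle nucleosides and the drug gemcitabine 2 of 21 were higher and 6 lower (median 0.01). CDA, the deaminase that inactivates gemcitabine, was at 1939 in HPAF1, 67.2 in L3.6, 59.6 in PANC1, 1307 in SU86.86 and 259 in HPDE, a difference of 3.86. DCK, the kinase that activates it, was at 501 in HPAF1 and 1099.7 in L3.6, and the nucleoside transporter SLC29A1 at 341 in HPAF1 and 729 in L3.6. Response to the drug was not measured.

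Of the ABC transporters 3 of 13 were higher and 2 lower (median 0.24). ABCG2, a drug efflux pump, was at 803 in HPAF1 and 184 in L3.6, and ABCA1, which exports cholesterol, at 34.9 in HPAF1 and 534 in L3.6, while ABCB1 was below the filter on all 5 arrays. Of the ion and water transport genes of the duct 4 of 13 were higher and 2 lower (median 0.23). CA2, the cytosolic carbonic anhydrase of duct cells, was at 1077 in HPAF1 and 22.4 in L3.6, the sodium channel subunit SCNN1A at 3703 in HPAF1 and 940.4 in L3.6 and the cotransporter SLC12A2 at 2589 in HPAF1 and 469 in L3.6. For SCNN1A the difference was 1.90, but 0.14 and 0.27 on its 2 other probe sets above the filter. The water and glycerol channel AQP3 (6253 in HPAF1 and 15506 in L3.6) and the chloride channel ANO1 (1133 in HPAF1 and 2878 in L3.6) were lower in HPAF1. CFTR, the chloride channel of duct secretion, was near background in both, at 129 in HPAF1 and 99.4 in L3.6.

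Metallothioneins are small proteins that bind zinc and copper, and their difference rested on cross-matching probe sets. Of these genes and zinc transporters, 8 of 11 were higher and 0 lower (median 1.82). MT2A was at 6779 in HPAF1, 1674 in L3.6, 17463 in PANC1, 13425 in SU86.86 and 5554 in HPDE and MT1X at 2677 in HPAF1, 599.6 in L3.6, 11061 in PANC1, 7499 in SU86.86 and 3317 in HPDE. L3.6 had the lowest reading of the 5 lines for 8 of 11 members. The genes are near-identical, their probe sets can share targets, and their single values are uncertain. Without cross-matching probe sets 5 members were left, with a median of 0.03. These were MT1G (0.03), MT1M (0.55), MT3 (-0.04) and the zinc transporters SLC30A1 (1.68) and SLC39A14 (-0.77), so SLC30A1 alone was 2-fold apart and it is not a metallothionein.

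HOX genes, which set position along the body axis, were within 2-fold in 15 of 19 cases, against 83.2% of all genes, and 1 of 19 were higher and 3 lower (median -0.11). HOXB7 was at 110.3 in HPAF1, 1799 in L3.6, 2502 in PANC1, 2691 in SU86.86 and 73.8 in HPDE, with both other probe sets above the filter at least 2-fold apart. HOXB3 was at 75.9 in HPAF1 and 705 in L3.6 (-2.40, but -0.02 on its other probe set above the filter) and HOXB2 at 77.8 in HPAF1 and 331 in L3.6. HPAF1 was below the filter for all 3. Their neighbour HOXB6 was at 2676 in HPAF1 and 464 in L3.6 on the probe set used, but its other probe set above the filter went the opposite way, so its direction is uncertain. Of the oncofetal and IGF genes 3 of 13 were higher and 3 lower (median 0.14). IGFBP1 was at 1756 in HPAF1 and 114 in L3.6 and IGFBP6 at 5185 in HPAF1 and 1186 in L3.6, whereas IGFBP2 was at 86.3 in HPAF1 and 806 in L3.6, all of them carriers of insulin-like growth factors. HMGA2, a fetal chromatin protein, differed by 1.99, but both of its other probe sets above the filter went the opposite way. Of the BCL2 family and death receptor genes 4 of 25 were higher and 1 lower (median 0.23), with CFLAR, an inhibitor of death receptor signalling, at 1885 in HPAF1 and 290.4 in L3.6 and XIAP, which inhibits caspases, at 2433 in HPAF1 and 799.9 in L3.6, the latter with all 6 other probe sets above the filter at least 2-fold apart. For CFLAR, all 10 other probe sets above the filter went the same way, 5 of them by at least 2-fold.

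Some of the widest differences fell outside every list. These genes are given by name and level. Higher in HPAF1, the long noncoding RNA UCA1 was at 13789 in HPAF1, 169 in L3.6, 123 in PANC1, 2235 in SU86.86 and 179 in HPDE, and only SU86.86 shared part of that level. PLAC8, a small cysteine-rich protein, was at 7462 in HPAF1, 88.0 in L3.6, 3056 in PANC1, 1766 in SU86.86 and 124 in HPDE. CRIP1, a LIM domain protein, was at 6513 in HPAF1 and 96.0 in L3.6 and GSPT2, a translation termination factor, at 5242 in HPAF1 and 39.7 in L3.6. The transporter SLC16A4 was at 3589.6 in HPAF1 and 28.3 in L3.6 and TRNP1 at 5777 in HPAF1 and 96.6 in L3.6. Lower in HPAF1, EEF1A2, a translation elongation factor of nerve and muscle, was at 207 in HPAF1, 6233 in L3.6, 4682 in PANC1, 10430.4 in SU86.86 and 267 in HPDE, so HPAF1 lay with HPDE. The neuropeptide GAL, galanin, was at 54.7 in HPAF1 and 2483 in L3.6 and the surface antigen LY6K at 53.2 in HPAF1 and 3556 in L3.6. MSN, moesin, which links actin to the membrane, was at 119 in HPAF1, 3723 in L3.6, 3463 in PANC1, 4079 in SU86.86 and 995 in HPDE, so HPAF1 alone was below the filter. The basement membrane collagen COL4A1 was at 29.9 in HPAF1 and 1730.4 in L3.6, the secreted protease HTRA1 at 98.2 in HPAF1 and 2863 in L3.6 and the zinc finger factor PLAGL1 at 21.3 in HPAF1 and 1345 in L3.6. The sorting nexin SNX10 was at 39.1 in HPAF1 and 2265 in L3.6, MLLT11 at 90.1 in HPAF1 and 3296 in L3.6 and the lectin CLEC2B at 39.2 in HPAF1 and 2055 in L3.6. HDGFL3, at 22.7 in HPAF1 and 2306 in L3.6, had 6 other probe sets above the filter, all at least 2-fold lower in HPAF1. Among the 20 highest and 20 lowest genes, 9 had other probe sets above the filter, and in all 9 these went the same way, in 7 of them by at least 2-fold. L3.6 was below the filter for 14 of the 20 highest and HPAF1 for 16 of the 20 lowest.

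The differences were not spread evenly over the chromosomes. On chromosome 21, 20.5% of 166 tested genes were at least 2-fold higher in HPAF1 and 3.61% lower, and on chromosome 18 the shares were 15.9% and 4.09%. Chromosomes 14, 20 and 12 leaned the same way, with 13.4%, 13.4% and 13.1% higher. The opposite held on chromosome 13, where 18.6% of 263 genes were lower in HPAF1 and 4.56% higher, on chromosome 15, with 16.7% and 5.27%, and on chromosome 17, with 15.6% and 5.16%. Chromosome medians ran from -0.18 on chromosome 15 to 0.18 on chromosome 14. Copy number was not measured. The receptor subunits IFNGR2 and IL10RB and the effector MX1 lie on chromosome 21, and RB1 on chromosome 13.

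**Figure D4:**
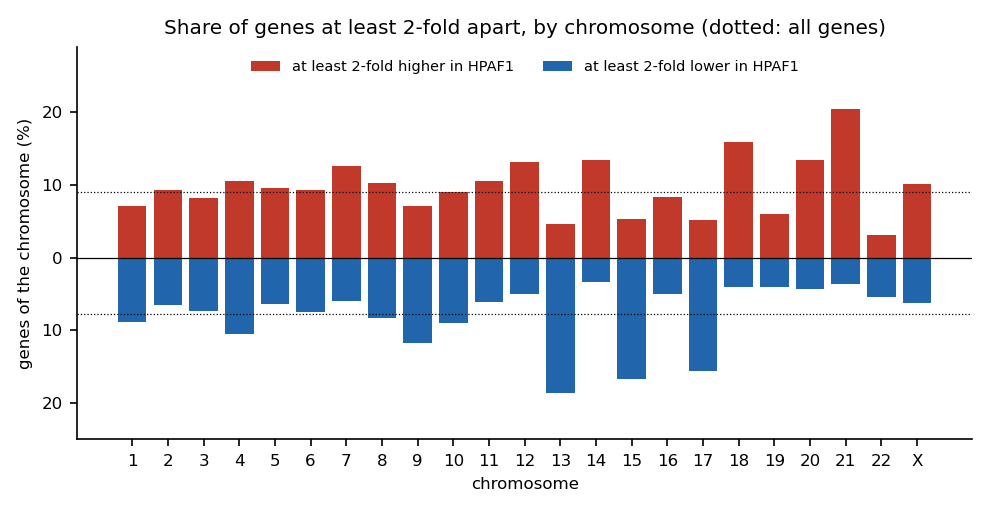
Share of the tested genes of each chromosome that were at least 2-fold higher in HPAF1 (red, upward) or lower (blue, downward), in percent, with dotted lines at the shares over all genes of 9.03% and 7.77%. Chromosomes 21 and 18 reach furthest upward, and chromosomes 13, 15 and 17 furthest downward.

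Some runs of neighbouring genes leaned one way. Over all 14303 windows of 25 neighbouring tested genes, the median difference lay between -0.51 and 0.47 at the 1st and 99th percentile. The highest window was on the X chromosome from TMEM47 to NDP, with a median of 0.87 and 11 genes at least 2-fold higher against 0 lower. In it lie the monoamine oxidases MAOA (784 in HPAF1 and 105 in L3.6) and MAOB (1287 in HPAF1 and 149 in L3.6) and the synaptic scaffold kinase CASK (2483 in HPAF1 and 561 in L3.6). The difference of CASK was 2.01, or 1.24 without cross-matching probe sets. Next came chromosome 12 from BHLHE41 to RESF1, with a median of 0.84 and 12 higher against 1 lower, and chromosome 2 from GALNT5 to NOSTRIN, with a median of 0.83 and 12 higher against 0 lower. RESF1, at 4306 in HPAF1 and 308 in L3.6, and the peptidase DPP4, at 805 in HPAF1 and 90.6 in L3.6, were members of these windows. The lowest window was on chromosome 17 from NUFIP2 to LRRC37B, with a median of -0.84 and 9 genes at least 2-fold lower against 2 higher, among them the protease BLMH (156 in HPAF1 and 2013 in L3.6) and the polycomb subunit SUZ12 (1208 in HPAF1 and 3747 in L3.6). A window on chromosome 13 from CKAP2 to SLAIN1 had a median of -0.72 with 10 lower against 1 higher, including KCTD12 (43.0 in HPAF1 and 651 in L3.6) and the formin DIAPH3 (207 in HPAF1 and 859 in L3.6). A second window on chromosome 17, from TMEM101 to EFTUD2, also had a median of -0.72, with 7 lower and 0 higher, among them the connexin GJC1, which differed by -3.13. EFTUD2 itself turned from -1.28 to 0.09 without cross-matching probe sets.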

How the data were processed

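The authors deposited 1 table of linear intensity values for 54675 probe sets on 5 arrays. How these intensities were summarised, scaled or background-corrected was not given in the sources used here. Array medians ran from 137 to 143, so values were used as deposited. The 62 control probe sets were left out. Of the rest, 41091 carried 1 symbol, 1801 several and 11721 none in the platform annotation, and 41037 of the first were matched to RefSeq (GRCh38.p14). Each gene kept its probe set with the highest mean log2 value over the 5 arrays. The constant 71.1 is the 25th percentile of all intensities, and the level filter is the median over all probe sets and arrays. The analysis used Python 3.11.15 with pandas 2.3.3 and was tested on simulated data. Genes were named by rank (20 highest, 20 lowest), as preset or widest members of 36 gene lists, or as members of the extreme windows. The lists, members and motifs were chosen with earlier results of these data known. Arrays of the lines not compared entered only the filter, the choice of probe set and the placing of levels. The 8 alternatives changed the constant, filter, probe set choice and scaling. The number of arrays limits the precision.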

Additional observations from a re-analysis of the deposited data

How the results depend on the processing

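The count of genes at least 2-fold higher in HPAF1 ran from 984 to 1615 and of those lower from 851 to 1481 over the 8 alternatives, within 1.5 times the reported counts, and higher genes made up 51.8% to 54.0% of each total. Of the 270 named genes that were 2-fold apart, 226 stayed so in the same direction under every alternative that gave a value. Values moved by over 1.5 times for 69 of them when all probe sets were averaged, 23 without cross-matching probe sets, 13 without a constant and 4 with a constant of 16. Without cross-matching probe sets the differences of WNT10A (-0.11), HES1 (-0.012), FADS2 (-0.036), HOXB6 (-0.0066), HMGA2 (-0.033) and EFTUD2 (0.087) changed sign. No paired analysis was possible because each line has 1 array. List medians that moved by more than 0.20, the largest spike-in difference, follow, and the cause was not tested beyond the change of probe sets or of genes that each alternative makes. With a constant of 16 the protease list was 0.68, and without a constant it was 0.78 and the TGF-beta and BMP list 0.35. With no filter the gastric and intestinal list was 0.63, the TGF-beta and BMP list 0.28 and the S100 and annexin list 0.15. With the stricter filter, medians were 1.92 for the gastric and intestinal list, 1.35 for mucins, 0.61 for chemokines and cytokines, 1.20 for proteases, -0.39 for nucleotide metabolism, 1.90 for duct transport and 0.62 for the neighbours of lost loci. With the filter on HPAF1 and L3.6 alone they were 1.16 for the gastric and intestinal list, 0.40 for keratins and squamous genes, 0.39 for chemokines and cytokines and 0.75 for proteases. With the mean of all probe sets they were 1.16 for the gastric and intestinal list, 0.51 for mucins, 0.19 for TGF-beta and BMP, 0.94 for sterols, -0.19 for nucleotide metabolism, 0.011 for ABC transporters and 0.77 for duct transport. Without cross-matching probe sets they were 0.064 for mucins, 0.40 for endoderm factors, 0.036 for TGF-beta and BMP, 1.10 for sterols, -0.089 for oncofetal genes, 0.030 for metallothioneins and 0.45 for the neighbours of lost loci. Quantile normalization moved none of these medians past that size.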

Other observations

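Probe sets outside the annotation were counted separately. Of 11721 probe sets with no listed gene, 4153 reached the level filter on at least 1 array. Of these, 183 were at least 2-fold higher in HPAF1 and 135 lower, or 7.66% in all, against 16.8% of the tested genes. They name no gene here and entered no count of genes.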
